A study of Capra hircus with 9 samples.

Results

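Levels of 10 growth and imprinted genes were followed in the goat submandibular gland from 1 to 24 months of age. The 10 genes, DLK1, PLAG1, HMGA2, IGF2BP1, IGF2BP2, IGF2BP3, MEST, PEG3, PLAGL1 and CDKN1C, were chosen by name, and the counts of all transcripts of a gene were summed. They are 10 of the 21665 genes in the expression table and hold 44 of its 52739 transcripts, of which 6 are new transcripts assembled by the authors. The submandibular gland is a major salivary gland. The glands came from 9 healthy female Lubo goats kept under the same conditions, 3 goats each at 1 month (group A), 12 months (group B) and 24 months of age (group C), with 1 RNA-seq library per goat. Total expected counts per library were between 11546808 and 24901065, and counts were converted here to CPM, counts scaled to a library of 1000000 counts, with TMM factors, which correct library totals for a few very abundant genes. At these depths 3 counts, the limit that a count of 0 allows, correspond to 0.145 to 0.189 CPM.

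Imprinted genes are transcribed mainly from the copy inherited from one parent, and many of them regulate growth before and shortly after birth. In other mammals DLK1, MEST, PEG3 and PLAGL1 are known as paternally expressed and CDKN1C as maternally expressed. PLAG1, HMGA2, IGF2BP1 and IGF2BP3 belong to a fetal growth programme that is switched off in many tissues as an animal grows. The IGF2BP proteins bind mRNAs, among them that of IGF2. The parental origin of the transcripts was not measured, and gene lengths were not used, so levels were compared between libraries and not between genes.

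The library labelled 1-month replicate 2 went against its tissue label, and the fits of the members are also given without it. The summed level of 8 salivary acinar and duct markers was 240 CPM there, against 25578 and 18876 CPM in the other 1-month libraries and 95454 to 176127 CPM in the older ones, and 7 of the 8 were lowest in it. AQP5, the water channel of acinar cells, was at 0.487 CPM in it and at 127 CPM or more in the other libraries. Markers of 7 thymocyte genes summed to 7607 CPM in that library, to 2479 and 1128 CPM in the other 1-month libraries and to 1.33 to 6.83 CPM in the older ones. Thymic epithelium markers (4 genes) summed to 68.2 to 693 CPM at 1 month and to 0.914 to 2.55 CPM at the older ages, where FOXN1 was at 0 in 3 of the 6 libraries. The 5 markers of dividing cells summed to 785 to 2391 CPM at 1 month and to 9.63 to 34.9 CPM later. All 7 thymocyte, all 4 thymic epithelium and all 5 dividing-cell markers fell in both comparisons with 1 month. Of the 8 salivary markers 1 passed as higher at 12 months and 2 at 24 months. In CPM each of the 8 was nevertheless higher in every older library than in every 1-month library. Of all genes, 53.5% did not overlap between 1 and 12 months and 43.6% between 1 and 24 months, in either direction. By library totals KRT19 overlapped in both comparisons and SLC12A2 in that with 24 months. MUC19 held most of the salivary sum in every library except 1-month replicate 2. The 7 fibroblast markers summed to 5464 and 6212 CPM in 1-month replicates 1 and 3, to 1256 CPM in replicate 2 and to 601 to 1471 CPM in the older libraries, and 1 of 7 fell by 12 months and 3 of 7 by 24 months. Endothelial markers (4 genes, 278 to 603 CPM in all) did not pass in either comparison, nor did the 3 tested adipocyte markers (3.79 to 267 CPM for all 4), and of 3 tested skeletal muscle markers (0.789 to 43.7 CPM for all 5) 1 fell by 24 months. The erythroid marker ALAS2 did not exceed 0.905 CPM. These marker levels moved with age together with several of the genes below, and their part in each result was not tested. In whole-tissue RNA fewer cells of a type and less RNA per cell cannot be told apart.

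**Figure D1:**
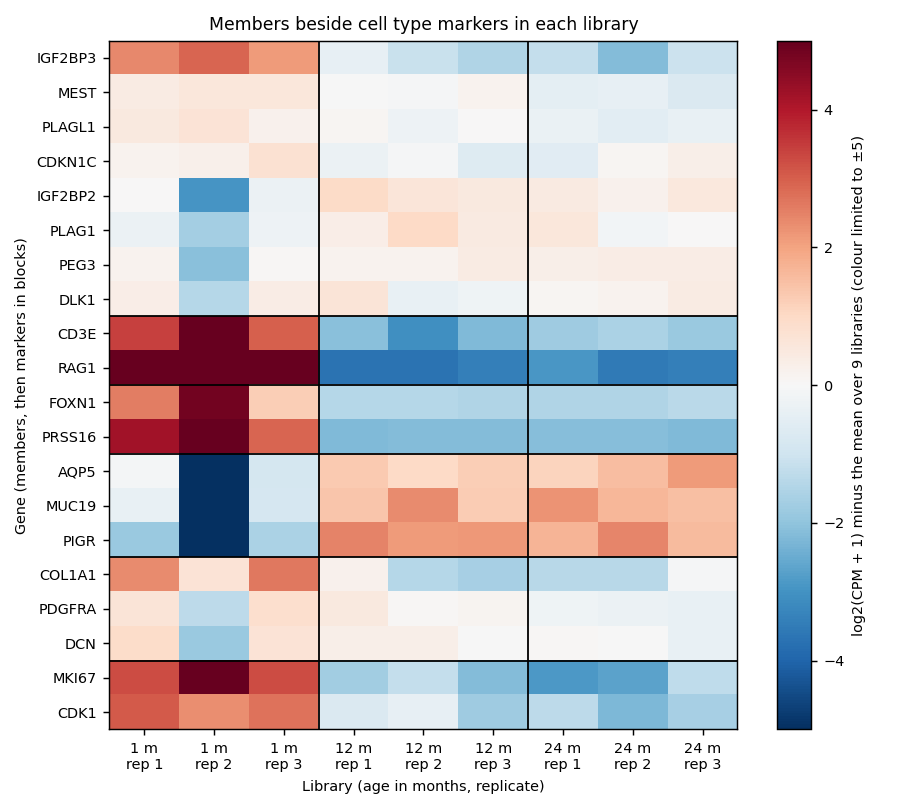
Level of 8 members and 12 markers (rows, in blocks: members, thymocyte, thymic epithelium, salivary, fibroblast, dividing cells) in each of the 9 libraries (columns), as log2(CPM + 1) minus the gene's mean over the 9 libraries, with red above and blue below that mean. The library labelled 1-month replicate 2 has the darkest blue in AQP5, MUC19 and PIGR and the darkest red in CD3E, and IGF2BP3 is red in the 3 1-month libraries and blue in the 6 older ones.

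Of the 3 genes of the IGF2 mRNA-binding protein family, IGF2BP3 had the clearest difference with age. IGF2BP3, an RNA-binding protein typical of fetal tissue, was at 26, 36.8 and 21.4 CPM in 1-month replicates 1 to 3. It was at 2.82, 1.33 and 0.792 CPM in the 12-month libraries and at 1.23, 0.113 and 1.39 CPM in the 24-month ones. Every 1-month library lay above every older library, and the 12-month and 24-month groups overlapped. The lowest value, in 24-month replicate 2, rested on 2.34 counts and was under the limit that a count of 0 allows.

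IGF2BP3 fell 16.6-fold from 1 to 12 months (log2 fold change -4.06, SE 0.558, edgeR quasi-likelihood test with Benjamini-Hochberg adjustment, adjusted p = 0.00946). By 24 months it was 29.7-fold lower than at 1 month (log2 fold change -4.89, SE 0.829, edgeR adjusted p = 0.00939). Without 1-month replicate 2 the folds were 14.3 (edgeR adjusted p = 0.00254) and 24.9 (edgeR adjusted p = 0.00324). The 1-month library with the highest level was also the one with the highest thymocyte sum and the lowest salivary sum, and the part of these cells in the result was not tested. The call depended on which older libraries were in the fit: with 12-month replicate 1, 2 or 3 left out, the edgeR adjusted p was 0.0508, 0.0663 and 0.0545, with log2 fold changes of -4.67, -3.91 and -3.72. Without 24-month replicate 3 the difference from 24 months had a log2 fold change of -5.38 and an edgeR adjusted p of 0.0546.

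IGF2BP2 is the family member that stays active in adult tissues. Its level was 15, 1.08 and 11.9 CPM in the 1-month libraries, 29.6, 23.3 and 21.6 CPM at 12 months and 21, 17.3 and 22 CPM at 24 months. The 1-month libraries lay below all older ones on this scale, but not when counts were scaled by library totals. With all libraries the difference did not pass at 12 months (log2 fold change 1.48, SE 0.785, edgeR adjusted p = 0.205) or at 24 months (1.24, SE 0.76, edgeR adjusted p = 0.284). Without 1-month replicate 2, where the level was 12.5-fold under the mean of the other 1-month libraries, IGF2BP2 rose by 12 months (log2 fold change 0.87, SE 0.207, edgeR adjusted p = 0.0181) and not significantly by 24 months (0.67, SE 0.339, edgeR adjusted p = 0.166).

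The ratio of both family members within a library does not depend on how libraries are scaled. IGF2BP3 made up 63.3%, 97.1% and 64.2% of the IGF2BP2 and IGF2BP3 counts in the 1-month libraries. It made up 8.78%, 5.37% and 3.6% in the 12-month and 5.42%, 0.557% and 5.93% in the 24-month libraries. The lowest bound of the 95% Wilson intervals at 1 month was 59.6% and the highest bound at the older ages was 11.4%, for counting error only and on reads without molecular identifiers. The means were 74.9% at 1 month, 5.91% at 12 months and 3.97% at 24 months. The 1-month mean includes the 97.1% of 1-month replicate 2 and lies above the 63.3% and 64.2% of the other 1-month libraries. The exact two-sided permutation test gave p = 0.1 for 1 month against either older age, the smallest p that 3 against 3 libraries allow, and p = 0.6 for 12 against 24 months. Since the shares compare counts and not molecules per length, they show the change with age and not which gene was more abundant.

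**Figure D2:**
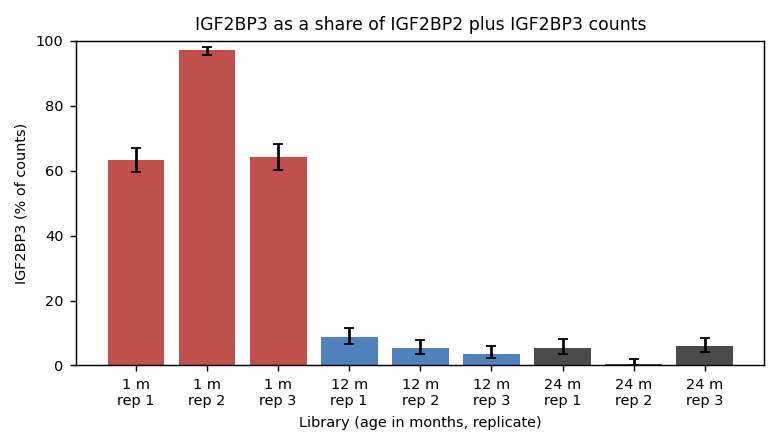
IGF2BP3 counts as a percentage of IGF2BP2 plus IGF2BP3 counts (vertical axis) in each of the 9 libraries (horizontal axis), with 95% Wilson intervals as error bars. The 1-month bars stand between 63.3% and 97.1% and the older bars between 0.557% and 8.78%.

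IGF2BP1, the third family member, was listed at 0 in 8 libraries and at 0.67 counts in 1-month replicate 2. HMGA2, a chromatin protein of fetal and undifferentiated cells, was listed at 0 counts in all 9 libraries. At the depth of these libraries a count of 0 does not exclude levels of either gene up to 0.145 to 0.189 CPM. Both were removed by the filter on low counts, so that 8 of the 10 genes were tested.

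Among the paternally expressed genes, MEST and PLAGL1 had levels ordered by age. MEST, which encodes an enzyme of the alpha/beta hydrolase family, was at 4.33, 5.01 and 4.95 CPM at 1 month, 3.03, 2.93 and 3.52 CPM at 12 months and 1.87, 2.04 and 1.44 CPM at 24 months. PLAGL1, a zinc finger transcription factor related to PLAG1, was at 46, 52.7 and 37.5 CPM, then at 34.4, 27 and 32.3 CPM and finally at 25.2, 21.7 and 24.4 CPM. For both genes every 1-month library lay above every 12-month library, and every 12-month library above every 24-month library, whether counts were scaled by TMM or by library totals.

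Such a descending order without overlap was found in 299 of the 14039 genes tested in all comparisons (2.13%). Leaving out 1-month replicate 2 could not change this order, since both genes had their highest level there. Neither gene passed in the fits of 2 ages. MEST had log2 fold changes of -0.56 at 12 months (SE 0.348, edgeR adjusted p = 0.266) and -1.32 at 24 months (SE 0.505, edgeR adjusted p = 0.105). PLAGL1 had log2 fold changes of -0.51 (SE 0.263, edgeR adjusted p = 0.197) and -0.84 (SE 0.344, edgeR adjusted p = 0.125). When all 9 libraries shared one estimate of the spread, the difference of 1 from 24 months passed for MEST (-1.43, SE 0.388, edgeR adjusted p = 0.022). It also passed for PLAGL1 (-0.95, SE 0.252, edgeR adjusted p = 0.021). That fit called further imprinted genes at 24 months that the fit of 2 ages did not, among them COPG2, DIRAS3 and PON3. The share of all genes that it called is not given here, so these calls are not read as particular to MEST and PLAGL1.

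PEG3, a large zinc finger protein, was at 55.7, 10.8 and 51.5 CPM at 1 month, 55, 56.1 and 65 CPM at 12 months and 59.8, 64.1 and 64.4 CPM at 24 months. The low value in 1-month replicate 2 stood apart from 8 libraries that lay between 51.5 and 65 CPM. The log2 fold change of PEG3 at 12 months was 0.65 with that library (SE 0.546, edgeR adjusted p = 0.407) and 0.12 without it (SE 0.131, edgeR adjusted p = 0.485). At 24 months it was 0.81 (SE 0.555, edgeR adjusted p = 0.338) and 0.33 (SE 0.29, edgeR adjusted p = 0.422).

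DLK1, a transmembrane protein of the Notch ligand type found on precursor cells, was at 6.74, 1.32 and 7.04 CPM at 1 month, 8.72, 3.76 and 4.31 CPM at 12 months and 5.61, 5.95 and 7.29 CPM at 24 months. The 3 groups overlapped. The log2 fold change of DLK1 was 0.22 at 12 months (SE 0.657, edgeR adjusted p = 0.827) and 0.46 at 24 months (SE 0.622, edgeR adjusted p = 0.641), and it turned to -0.31 and -0.03 without 1-month replicate 2. Scaling by library totals gave -0.36 and -0.34, so no direction can be given for DLK1.

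CDKN1C, an inhibitor of cyclin-dependent kinases that holds cells in the G1 phase, was at 7.04, 7.51 and 11.3 CPM at 1 month, 4.86, 5.85 and 3.61 CPM at 12 months and 3.8, 6.63 and 7.75 CPM at 24 months. The 12-month libraries lay below the 1-month ones, while the 24-month libraries overlapped with both groups. The log2 fold change of CDKN1C was -0.81 at 12 months (SE 0.363, edgeR adjusted p = 0.149) and -0.39 at 24 months (SE 0.467, edgeR adjusted p = 0.597), and -0.95 (edgeR adjusted p = 0.0611) and -0.49 (edgeR adjusted p = 0.449) without 1-month replicate 2.

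PLAG1, a zinc finger transcription factor that activates IGF2, was at 5.59, 1.5 and 5.72 CPM at 1 month. It was at 9.17, 15 and 9.98 CPM at 12 months and 11, 6.4 and 7.14 CPM at 24 months. All older libraries lay above the 1-month libraries on this scale, while by library totals the 24-month group overlapped with the 1-month group. The log2 fold change of PLAG1 was 1.48 at 12 months (SE 0.537, edgeR adjusted p = 0.0942) and 1.06 at 24 months (SE 0.574, edgeR adjusted p = 0.231). Without 1-month replicate 2 PLAG1 rose 2-fold by 12 months (log2 fold change 1.00, SE 0.289, edgeR adjusted p = 0.0342), and the difference at 24 months was 0.63 (SE 0.426, edgeR adjusted p = 0.294).

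**Figure D3:**
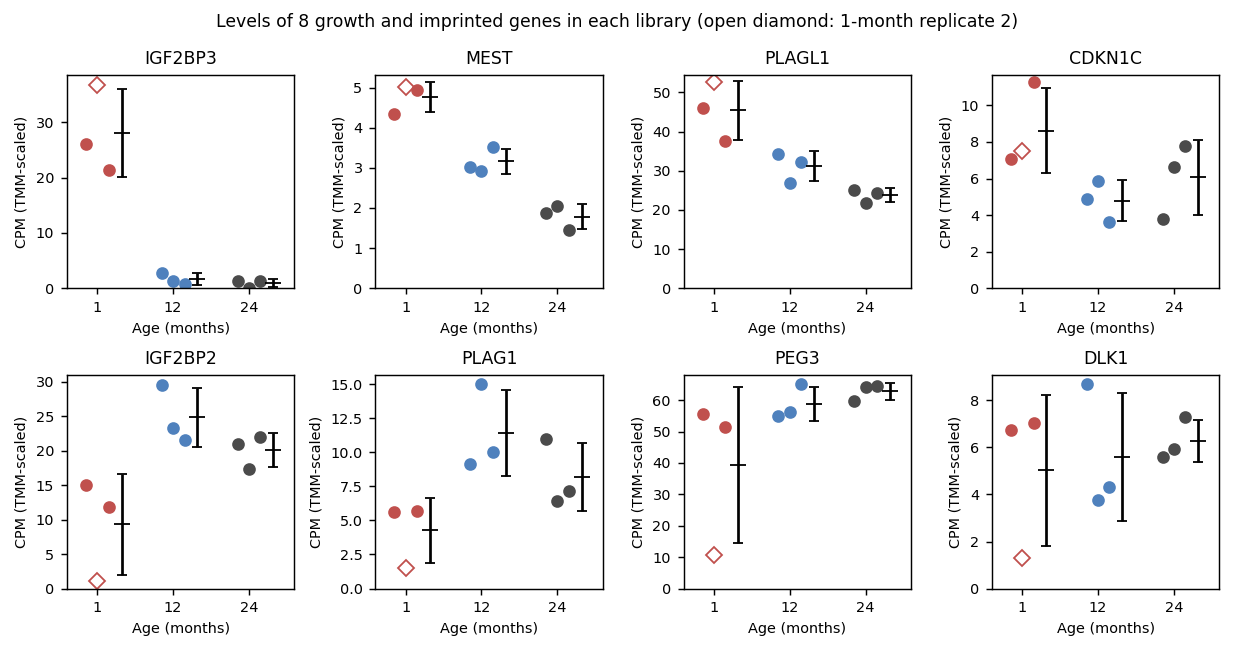
CPM of the 8 tested genes (one panel each, vertical axis from 0) in each library at 1, 12 and 24 months (horizontal axis), with the mean and SD of the 3 libraries as black bars and the library labelled 1-month replicate 2 as an open diamond. The diamond is the lowest of the 9 points for IGF2BP2, PLAG1, PEG3 and DLK1 and the highest for IGF2BP3, MEST and PLAGL1.

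In 1-month replicate 2, 7 of the 8 tested genes were thus at an extreme of the 9 libraries. DLK1, PLAG1, IGF2BP2 and PEG3 were there 5.21-, 3.78-, 12.5- and 4.97-fold below the mean of the other 1-month libraries. IGF2BP3, MEST and PLAGL1 were highest in it, and CDKN1C lay within the range of its group.

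Over the whole set 1 of 8 tested genes, IGF2BP3, was lower at 12 months and none was higher, against 11.8% of all 14884 genes tested that were lower and 6.49% that were higher. At 24 months again 1 of 8 was lower and none higher, against 10.6% and 7.08% of 14954 genes. Its log2 fold change also exceeded the threshold of 2 used in the study. Without 1-month replicate 2, 1 of 8 was lower and 2 were higher at 12 months, against 22.1% and 21.1% of all genes, and 1 was lower and none higher at 24 months, against 14.2% and 13.8%. The share that passed in the set was thus near that of all genes. The median log2 fold change of the 8 genes was -0.15 at 12 months and 0.04 at 24 months, beside -0.02 and -0.01 for all genes. With 1-month replicate 2 left out the medians were -0.37 and -0.26, beside -0.01 and 0.05 for all genes.

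The groups did not overlap for 6 of the 8 genes at 1 against 12 months, where 53.5% of all genes did not overlap, nor for 6 of 8 at 1 against 24 months, where the share was 43.6%. IGF2BP3, MEST, PLAGL1, PLAG1 and IGF2BP2 were separate in both, CDKN1C only in the comparison with 12 months and PEG3 only in that with 24 months. By library totals CDKN1C was separate in both comparisons, PEG3 and IGF2BP2 overlapped in both and PLAG1 overlapped in that with 24 months. Both comparisons use the same 1-month libraries.

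**Figure D4:**
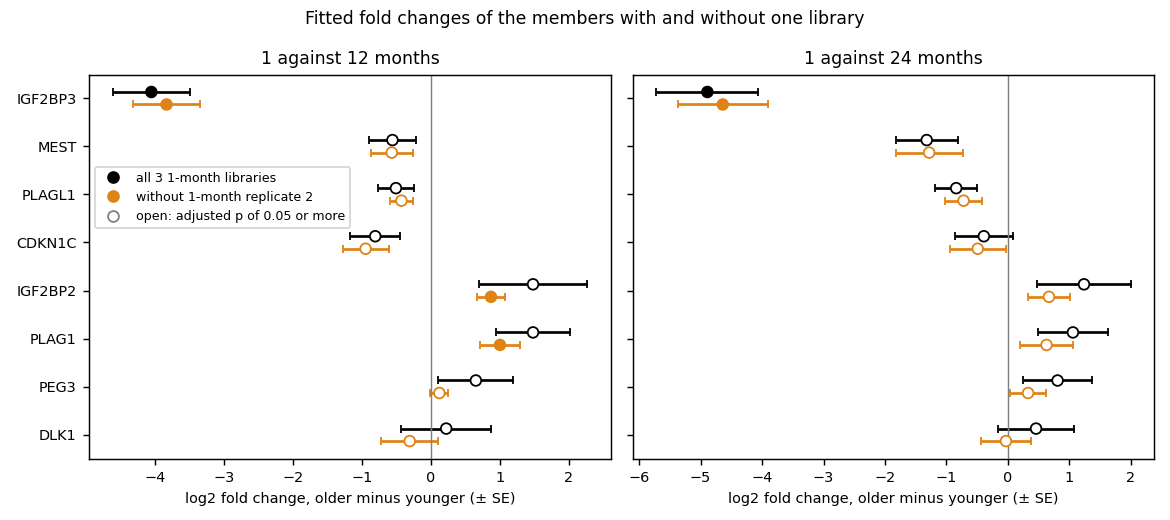
Fitted log2 fold change with SE (horizontal axis, older minus younger) for each of the 8 tested genes (vertical axis) at 1 against 12 months (left) and 1 against 24 months (right), with all libraries in black and without 1-month replicate 2 in orange. Filled points have an adjusted p under 0.05: IGF2BP3 in every fit, at -4.06 to -4.89 with all libraries, and IGF2BP2 (0.87) and PLAG1 (1.00) at 12 months without that library.

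How the libraries were scaled mattered for the smaller differences. TMM factors were 1.102 to 1.381 in the 1-month libraries and 0.815 to 1.019 in the older ones. With library totals instead, the median log2 fold change of all genes moved to -0.51 at 12 months and -0.71 at 24 months, and the lower genes made up 94% and 92.6% of all genes that passed, against 64.5% and 59.9% with TMM. On that scale IGF2BP3, PLAGL1 (log2 fold change -0.96, edgeR adjusted p = 0.0393) and CDKN1C (-1.33, edgeR adjusted p = 0.05) were lower at 12 months, and IGF2BP3, PLAGL1 (-1.52, edgeR adjusted p = 0.013) and MEST (-2.02, edgeR adjusted p = 0.0229) at 24 months. Over all genes, 3279 of 14884 were lower at 12 months and 3288 of 14954 at 24 months by library totals. Relative to the shifted median, MEST, PLAGL1 and CDKN1C stayed below the median gene.

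**Figure D5:**
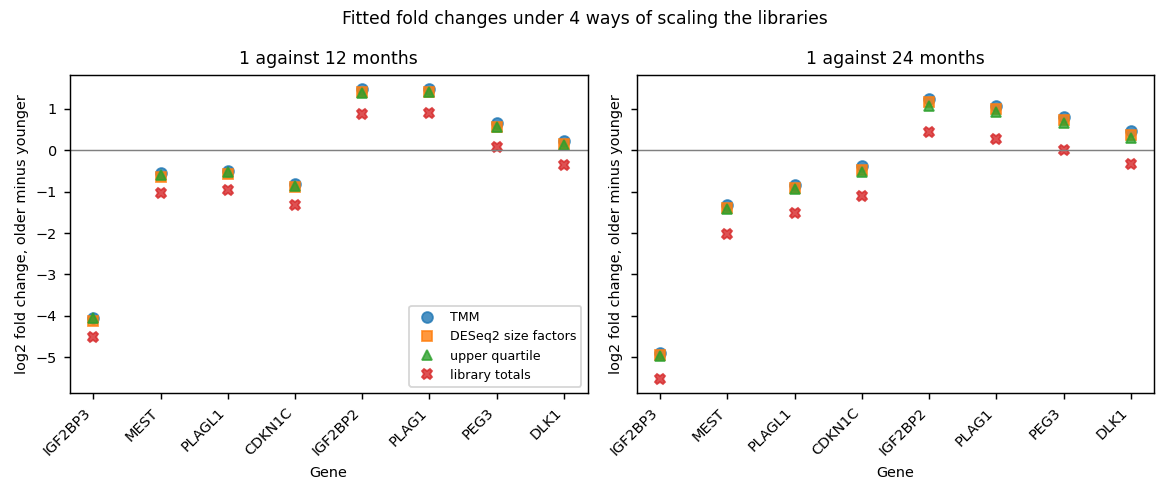
Fitted log2 fold change (vertical axis, older minus younger) of the 8 tested genes (horizontal axis) at 1 against 12 months (left) and 1 against 24 months (right) under 4 ways of scaling, with one symbol per scaling. Library totals give the lowest value for each gene, for IGF2BP3 -4.51 and -5.52, and turn DLK1 below 0.

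Between 12 and 24 months none of the 8 genes passed in the edgeR quasi-likelihood test, none had an unadjusted p under 0.05, and DESeq2 and edgeR's exact test called none either. Of all 14289 genes tested 0 (0%) passed, 1560 had an unadjusted p under 0.05, and DESeq2 and the exact test called 25 and 24. The largest differences of the set were in IGF2BP3 (log2 fold change -0.85, SE 0.831, edgeR adjusted p = 0.59) and MEST (-0.77, SE 0.414, edgeR adjusted p = 0.434). MEST and PLAGL1 were the 2 of 8 genes whose groups did not overlap, against 15.4% of all genes. Leaving out 24-month replicate 1 raised the calls over all genes from 0 to 4614 of 14585 tested, and those in the set remained at 0.

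At the level of single transcripts the counts of a gene are divided among isoforms that share most of their reads, so these values are less certain than the gene sums. None of 29 tested transcripts passed at 12 months by the edgeR quasi-likelihood test, against 2.98% of all transcripts in that test. At 12 months edgeR's exact test called 1 and DESeq2 called 3. Their shares of all transcripts are not given here, so these calls cannot be set against the 2.98%. At 24 months 1 of 26 passed, against 1.5% of all transcripts. It was the IGF2BP3 transcript XM_005679051.3 (edgeR adjusted p = 0.0427), with 101.6, 244.3 and 176.9 expected counts in the 1-month libraries, 50.61, 24.09 and 0 at 12 months and 0.01, 0 and 0 at 24 months. Set against 3 counts in each 24-month library it was 65-fold lower than at 1 month, or 56.6-fold without 1-month replicate 2. These folds take the division of counts among isoforms as given and are not lower bounds. The 24-month libraries held 22.48, 2.34 and 27 IGF2BP3 counts, assigned almost wholly to other transcripts. This transcript no longer passed when any one library was left out.

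The other main IGF2BP3 transcript, XM_005679052.2, had 288.6, 455.3 and 140.9 expected counts at 1 month, 0, 0 and 14.71 at 12 months and 15.18, 2.34 and 27 at 24 months. The first transcript held 35.6% of IGF2BP3 counts at 1 month and 83.5% at 12 months, and the second 60.3% and 16.5%. No older library had more than 3 counts of both, and which of them held the few remaining IGF2BP3 counts differed between libraries of 12 months.

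For the remaining genes the shares of the main transcripts are given as a description, without a test. MEST was a single transcript, XM_005679479.3. IGF2BP2 lay mostly on XM_005675253.3 (88.8%, 90.5% and 94.9% of its counts at 1, 12 and 24 months), CDKN1C on XM_018043546.1 (90.7%, 89.9% and 82.9%) and DLK1 on NM_001314212.1 (56.7%, 64.8% and 57.9%), with XM_018065826.1 as the next (20.6%, 10.5% and 30.3%). PLAG1 counts were shared by XM_005688991.3 (44.5%, 65% and 52%), XM_013969222.2 (51.5%, 30.4% and 22.7%) and XM_018058497.1 (2.01%, 4.62% and 20%), and XM_013969222.2 was at 0 in 3 of the 6 older libraries.

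PLAGL1 had 10 transcripts, with XM_018053293.1 at 33.6%, 38.3% and 46.9% and the new transcript TCONS_00030035 at 23.2%, 23.1% and 23.9%. XM_018053290.1 and XM_018053291.1 of PLAGL1 had counts only in 1-month replicate 2 (56.94 and 67.75). PEG3 had 9 transcripts, 3 of them new, and its largest were the new transcript TCONS_00056017 (45.6%, 19.5% and 24.7%) and XM_018063409.1 (26.4%, 32.1% and 23%). Counts of TCONS_00056017 ranged from 0 to 553.6 between libraries of the older ages, although PEG3 as a whole varied little there.

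Other imprinted genes were read from a list of 32, written from general knowledge, of which 29 were in the table and 21 were tested. Whether each of them is imprinted in the goat gland was not measured. PEG10, a paternally expressed gene derived from a retrotransposon, fell at both ages, and PON2, a lactonase of the paraoxonase family, rose. PEG10 was at 110, 203 and 107 CPM at 1 month, 34.7, 32.9 and 19.2 CPM at 12 months and 22.7, 15.7 and 17.5 CPM at 24 months, with log2 fold changes of -2.25 (edgeR adjusted p = 0.0165) and -2.82 (edgeR adjusted p = 0.00741). PON2 was at 28.9, 11 and 30.1 CPM, then 114, 135 and 110 CPM and finally 124, 101 and 64.6 CPM, with log2 fold changes of 2.42 (edgeR adjusted p = 0.0136) and 2.16 (edgeR adjusted p = 0.02). Both passed without 1-month replicate 2 as well, PEG10 with -1.91 and -2.44 and PON2 with 2.02 and 1.81, while PON2 did not pass at 24 months by library totals (edgeR adjusted p = 0.0873).

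These were 1 lower and 1 higher of the 21 genes with all libraries in each comparison, and the median of the list was 0.14 at 12 months and 0.09 at 24 months. Of all genes tested, 11.8% were lower and 6.49% higher at 12 months, and 10.6% and 7.08% at 24 months. The list with 1-month replicate 2 left out gave 5 lower (COPG2, IGF2, MAGEL2, NDN and PEG10) and 5 higher (CASD1, DIRAS3, GNAS, PON2 and PON3) genes of 21 at 12 months, and 1 lower and 2 higher (PON2 and PON3) of 23 at 24 months, with medians of 0.03 and 0.58. Over all genes that fit called 22.1% lower and 21.1% higher at 12 months, and 14.2% and 13.8% at 24 months. IGF2, the fetal insulin-like growth factor, was at 370, 162 and 471 CPM at 1 month, 233, 150 and 243 CPM at 12 months and 109, 267 and 247 CPM at 24 months. The age groups of IGF2 overlapped with all libraries (log2 fold changes -0.62, edgeR adjusted p = 0.316, and -0.55, edgeR adjusted p = 0.513). Without 1-month replicate 2 IGF2 fell 2.03-fold by 12 months (log2 fold change -1.02, SE 0.243, edgeR adjusted p = 0.0183), and the difference at 24 months was -0.91 (edgeR adjusted p = 0.132).

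LIN28 proteins block the maturation of let-7 microRNAs, which repress HMGA2, the IGF2BP genes and other growth genes. Of 21 genes of this axis 17 were tested, and 1 fell and 1 rose in each comparison. LIN28A and TRIM71 were listed at 0 in all libraries, and LIN28B reached 3.07 counts in 1-month replicate 3 and 0 in the others. MYCN, a transcription factor of growing cells, was at 7.04, 19.7 and 4.76 CPM at 1 month, at 0.497 to 0.747 CPM at 12 months and at 0.35 to 0.462 CPM at 24 months. It fell by 3.98 on the log2 scale at 12 months (edgeR adjusted p = 0.0147) and by 4.64 at 24 months (edgeR adjusted p = 0.00808), and by 3.16 and 3.79 without 1-month replicate 2. NR6A1, an orphan nuclear receptor, rose from 1.25 to 4.63 CPM at 1 month to 13.1 to 15.1 CPM at 12 months (log2 fold change 2.14, edgeR adjusted p = 0.031) and 11.6 to 12.9 CPM at 24 months (1.98, edgeR adjusted p = 0.0403). By library totals NR6A1 did not pass (edgeR adjusted p = 0.0882 and 0.178), and with 1-month replicate 2 left out it passed with log2 fold changes of 1.67 and 1.56. The median of the list was -0.32 at 12 months and -0.72 at 24 months, against -0.02 and -0.01 over all genes, of which 11.8% fell and 6.49% rose at 12 months and 10.6% fell and 7.08% rose at 24 months. With 1-month replicate 2 left out the list gave 6 lower and 3 higher genes of 17 at 12 months (median -0.56; 22.1% and 21.1% of all genes) and 1 lower and 2 higher at 24 months (median -0.30; 14.2% and 13.8% of all genes).

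The last list held 24 receptors, cell cycle partners and relatives of the set, and all 24 were tested. CDK2 and NOTCH3 fell, and EPHX1, GPC4, IGF1R and INSR rose, in both comparisons. These were 2 lower and 4 higher of 24, against 11.8% and 6.49% of all genes at 12 months. At 24 months the shares of all genes were 10.6% and 7.08%. By library totals the list gave 7 lower and 1 higher at 12 months, and 6 lower and 1 higher at 24 months. On that scale 3279 genes were lower and 210 higher of 14884 at 12 months, and 3288 and 261 of 14954 at 24 months. IGF1R, the receptor of the insulin-like growth factors, was at 188, 129 and 150 CPM at 1 month, 437, 353 and 336 CPM at 12 months and 343, 451 and 564 CPM at 24 months (log2 fold changes 1.31, edgeR adjusted p = 0.0252, and 1.66, edgeR adjusted p = 0.0316). INSR, the insulin receptor, was at 94.5 to 244 CPM at 1 month and at 452 to 584 CPM later (1.48, edgeR adjusted p = 0.0413, and 1.73, edgeR adjusted p = 0.0378). For both receptors all 6 older libraries lay above all 1-month libraries, but neither passed by library totals (edgeR adjusted p from 0.116 to 0.177). With 1-month replicate 2 left out IGF1R passed with log2 fold changes of 1.14 and 1.52, and INSR with 1.11 and 1.40.

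GPC4, a cell surface proteoglycan, was at 2.23 to 22.6 CPM at 1 month and at 52 to 103 CPM later (log2 fold changes 2.84 and 2.93), and it too did not pass by library totals (edgeR adjusted p = 0.0848 and 0.0817). EPHX1, an epoxide hydrolase, was at 94.5 to 117 CPM at 1 month, 331 to 351 CPM at 12 months and 328 to 613 CPM at 24 months (1.72 and 2.37). CDK2, a kinase that drives entry into S phase, was at 28.1 to 57.1 CPM at 1 month and at 8.57 to 13.4 CPM later (-1.74 and -1.96). NOTCH3, a Notch receptor, was at 169, 844 and 118 CPM at 1 month and at 23.5 to 50.5 CPM later, and its log2 fold changes of -3.71 and -3.36 became -2.32 and -1.93 without 1-month replicate 2. In that fit GPC4 (2.26 and 2.40), EPHX1 (1.59 and 2.28) and CDK2 (-1.38 and -1.56) passed as well. The median of this list was -0.28 at 12 months and -0.27 at 24 months. It gave 7 lower and 7 higher genes at 12 months and 3 lower and 5 higher at 24 months when 1-month replicate 2 was left out, with medians of -0.33 and -0.00 and with 22.1% and 21.1% of all genes called at 12 months and 14.2% and 13.8% at 24 months. None of the calls named in these 3 lists held at 12 months when any one of the 3 12-month libraries was left out (edgeR adjusted p from 0.0616 to 0.142), and none held at 24 months without 24-month replicate 3 (edgeR adjusted p up to 0.119).

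The genes whose profile over the 9 libraries was most like that of a member were found by Pearson's r of log2(CPM + 1) among 14169 genes, as a description, since all values come from the same libraries and 1-month replicate 2 weighs heavily in them. IGF2BP3 was most like LRRC8C, a subunit of volume-regulated anion channels (r = 0.995), RTKN2 (0.994) and GPR65, a proton-sensing receptor of leukocytes (0.99). LRRC8C was at 18 to 25.1 CPM at 1 month and at 2.1 to 4.9 CPM later. PLAGL1 was most like SFPQ, a splicing factor (0.988), KIAA0907 (0.982) and DZIP1 (0.979), and MEST was most like PPID (0.977), the ETS factor ELK3 (0.975) and HNRNPH3 (0.973).

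The genes that were low in 1-month replicate 2 had partners that were low there too. IGF2BP2 was most like STOX2 (0.992), the epithelial integrin subunit ITGB6 (0.992) and the zinc transporter SLC39A8 (0.991), and SLC39A8 was at 2.3 CPM in that library and at 151 to 821 CPM in the others. PEG3 was most like B4GALNT2 (0.995), LOC102189536 (0.99) and the smooth muscle actin ACTG2 (0.989), PLAG1 like ZFAND6 (0.993), HSD17B12 (0.991) and JMY (0.99), and DLK1 like FXYD6 (0.961), the Hedgehog effector GLI2 (0.96) and ADAMTS1 (0.956). CDKN1C, which was not low there, was most like the inhibitory immune receptor LAIR1 (0.964), the complement inhibitor SERPING1 (0.941) and TMEM173 (0.936).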

How the data were processed

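RNA was depleted of ribosomal RNA, made into strand-marked libraries and sequenced on an Illumina HiSeq instrument. The authors removed remaining ribosomal reads with Bowtie2 2.2.8, aligned reads with TopHat2 2.1.1, assembled new transcripts with Cufflinks and estimated abundances with RSEM. The build is not given in the sources used here. The table deposited by the authors holds expected counts for each transcript and library, with no normalization. Whole numbers made up 25.1% of the deposited values above 0 in 24-month replicate 3 and 0.835% to 2.22% in the other libraries.

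RefSeq gene IDs were named through the goat annotation (42652 of 42686 rows matched), new transcripts by the symbol in the table in upper case, and transcripts were summed per gene. TUT4, TUT7, MYH7 and FABP4 were taken as ZCCHC11, ZCCHC6, LOC102181869 and LOC100861279 from their product descriptions. H19, MEG3, USP29 and HBG were not analysed here. Libraries are named by age and the number in their title. The rounded sums were tested in edgeR 4.0.16 (R 4.3.3) with filterByExpr, TMM, glmQLFit and glmQLFTest on the 6 libraries of a comparison, with Benjamini-Hochberg adjustment over all genes tested and a threshold of 0.05. SE is the absolute log2 fold change divided by the root of the F statistic. The study also required a log2 fold change over 2 and an FPKM limit, which was not applied. CPM are counts over TMM-scaled totals. Permutation tests used scipy 1.17.1. The edgeR test was tested on simulated data.

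The members and lists were chosen with earlier results of these data known. All members are named. From each list IGF2, H19, LIN28B, MYCN and IGF1R were named whatever their values, with up to 6 further genes that passed in both comparisons with 1 month without overlap of libraries. For each member the 3 most alike genes with a mean of at least 1 CPM, and transcripts that passed or held at least 20% of its counts in a group, were named. Genes that passed only without 1-month replicate 2 were named after their values were seen. Replicates are separate goats. Alternatives were DESeq2 size factors, upper-quartile factors, library totals, no filter, DESeq2 1.42.0, edgeR's exact test, all 9 libraries in one fit, a replicate block and leaving out each library.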

Additional observations from a re-analysis of the deposited data

How the results depend on the processing

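The fold changes of the 8 members and of the named listed genes kept their direction and side of the threshold in 529 results under an alternative, lost the call in 97, gained it in 12 and turned in 6. A call could be lost only among the 11 calls at 12 months and the 11 at 24 months. The 529 include results that did not pass to begin with, so they do not measure how stable the calls were. DLK1 turned to -0.36 at 12 months by library totals, to -0.31 without 1-month replicate 2 and to -0.23 without 12-month replicate 1, and at 24 months to -0.34 by library totals and -0.03 without 1-month replicate 2, against 0.22 and 0.46 with all libraries and up to 0.47 and 0.73 without 1-month replicate 3, while PEG3 between 12 and 24 months turned to -0.06 by library totals. The number of members that passed at 12 months was 3 by library totals, 2 by DESeq2 and 2 by edgeR's exact test, with PLAG1 (adjusted p = 0.049 in DESeq2 and 0.0471 in edgeR's exact test) as the second, and at 24 months 3 by library totals, 2 by DESeq2 and 3 with all 9 libraries in one fit. Library totals, DESeq2 and the exact test also called more genes in all. At 12 months they called 3489, 4728 and 4162 of 14884 genes, against 2719 in the fits used above. At 24 months they called 3549, 4052 and 3816 of 14954 genes, against 2637. The gene list counts below for these settings come from the same fits. For the fit of all 9 libraries the share of all genes called is not given here. With one library left out the counts at 12 months were 0 to 3 members, 0 to 10 other imprinted genes and 0 to 9 genes of the LIN28 axis. Growth partners then numbered 0 to 14 and member transcripts 0. At 24 months the counts were, in the same order, 0 to 1, 0 to 3, 0 to 3, 0 to 8 and 0. The highest list counts came without 1-month replicate 2. In that fit 6591 of 15235 genes passed at 12 months (22.1% lower and 21.1% higher). At 24 months 4295 of 15369 genes passed (14.2% lower and 13.8% higher). All 11 calls at 12 months, IGF2BP3 included, were lost without 12-month replicate 1, 2 or 3, and all 11 at 24 months without 24-month replicate 3. Over all genes the calls at 12 months were then 0, 70 and 125 against 2719, and at 24 months 309 against 2637. Other imprinted genes that passed at 12 months numbered 5 by library totals, 9 by DESeq2, 6 by the exact test and 4 in the fit of all 9 libraries, and at 24 months 5 by DESeq2, 4 by the exact test and 5 in the fit of all 9 libraries. For the LIN28 axis at 12 months these were 5, 6, 5 and 6, and at 24 months 4 by library totals, 1 with upper-quartile factors and 1 with a log2 fold change over 2. With that fold added, growth partners numbered 2 at 12 months and 3 at 24 months. Member transcripts that passed numbered 3 by DESeq2 and 1 by the exact test at 12 months. At 24 months they numbered 2 by library totals, 3 by DESeq2 and 3 by the exact test. The shares of all transcripts in these fits are not given here, so these counts are not read as a result about the set.

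The replicate numbers did not pair the goats: deviations of libraries with the same number correlated at -0.12, -0.12 and -0.11 for 1 and 12 months, 0.42, 0.20 and -0.23 for 1 and 24 months and -0.08, -0.13 and 0.00 for 12 and 24 months. With the replicate number as a block 1, 1 and 0 members passed in the 3 comparisons, IGF2BP3 with -4.18 (edgeR adjusted p = 0.0217) and -5.09 (edgeR adjusted p = 0.0171). The block left 2 other imprinted genes at either age, 0 and 1 genes of the LIN28 axis, 1 and 3 growth partners and 0 and 0 member transcripts at 12 and 24 months, and 925 and 2162 genes in all. The cause of these changes was not tested.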
